A study of Mus musculus with 12 samples.

Results

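The TAM family was followed across 12 tumors grown from YUMM1.7, mouse melanoma cells whose engineered alterations include activated Braf and loss of Cdkn2a. The family comprises 5 genes, the ligands Gas6 and Pros1 and the receptor tyrosine kinases Axl, Mertk and Tyro3. They were chosen by gene symbol, and all 5 were present among the 23940 genes of the expression table. The tumors formed 4 groups of 3: control tumors given vehicle (DMSO in the sample names), control tumors given a BRAF inhibitor (BRAFi), and tumors with PD-L2 overexpression (Pdl2OE) given vehicle or BRAFi. PD-L2, encoded by Pdcd1lg2, is a ligand of the T cell receptor PD-1. All mice were immunodeficient. The sample labels name NSG mice, which lack T, B and NK cells, whereas the series design names NOD/SCID mice, which lack T and B cells; both strains keep macrophages and neutrophils. The compound behind the name BRAFi, its dose and duration, the age and sex of the mice and the vector or clone behind PD-L2 overexpression are not stated in these sources. The series design speaks of tumors resistant to the inhibitor, and the sample labels give the treatment alone. Each library came from a different tumor; the labels do not say whether any tumors shared a mouse.

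TAM receptors are cell surface kinases that recognise phosphatidylserine, a lipid displayed by dying cells, through bridging ligands. Gas6 and Pros1 (protein S) bind the lipid with a vitamin K-dependent Gla domain and bind the receptor with their other end. Gas6 engages all of the TAM receptors and is the ligand of Axl, while Pros1 acts through Tyro3 and Mertk. In macrophages Mertk drives the uptake of dead cells, and TAM signalling dampens inflammatory cytokine output. In melanoma cells high Axl is a known feature of a dedifferentiated state, and Axl has been linked to tolerance of BRAF inhibitors.

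Because the results below turn on Gas6, on its contrast with Pros1 and on the level of Axl, the promoter windows of these genes are shown (RefSeq, GRCm38.p6, 250 bases before to 50 bases after the start of the gene, in the direction of transcription). The Gas6 window is chr8:13494486-13494785 on the minus strand, the Pros1 window is chr16:62854057-62854356 on the plus strand and the Axl window is chr7:25788684-25788983 on the minus strand. Capitals mark the GC box (GGGCGG or its reverse complement CCGCCC, the core of SP1 sites) and the TEAD core (GGAATG or CATTCC).
Gas6: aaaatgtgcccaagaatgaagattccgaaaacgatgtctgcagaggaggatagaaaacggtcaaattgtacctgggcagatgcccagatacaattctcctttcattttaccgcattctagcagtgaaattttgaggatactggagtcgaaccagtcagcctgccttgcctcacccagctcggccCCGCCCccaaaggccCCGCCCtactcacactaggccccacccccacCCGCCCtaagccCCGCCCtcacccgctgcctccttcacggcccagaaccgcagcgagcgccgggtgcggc
Pros1: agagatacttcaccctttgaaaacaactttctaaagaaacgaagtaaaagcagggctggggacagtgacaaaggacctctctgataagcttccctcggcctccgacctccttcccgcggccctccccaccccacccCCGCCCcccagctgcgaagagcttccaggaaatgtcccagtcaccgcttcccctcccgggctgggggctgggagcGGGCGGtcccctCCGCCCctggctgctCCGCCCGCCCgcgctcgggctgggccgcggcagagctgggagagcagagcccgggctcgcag
Axl: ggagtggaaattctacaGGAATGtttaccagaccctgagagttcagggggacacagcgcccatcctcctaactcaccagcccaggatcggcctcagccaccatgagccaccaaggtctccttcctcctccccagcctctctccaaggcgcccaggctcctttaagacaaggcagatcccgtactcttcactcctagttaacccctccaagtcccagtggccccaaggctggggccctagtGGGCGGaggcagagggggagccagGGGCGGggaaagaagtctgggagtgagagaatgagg
The GC box was matched 4 times in Gas6, 5 times in Pros1, where the last 2 matches overlap, and 2 times in Axl. It was found 4 times in the window of Mertk and 6 times in that of Tyro3, and 35.7% of the 32851 RefSeq windows of this length hold it. The TEAD core was matched 1 time, in Axl, and 14.7% of windows hold it. The AP-1 core TGANTCA was matched in none of the 5 windows and in 7.81% of all windows. These are letter matches in a short window and say nothing of which factor binds there.

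Expression was given as FPKM (read fragments divided by transcript length in kilobases and scaled to the number of mapped fragments), a unit that corrects for transcript length, so that levels of different genes can be set side by side. FPKM sums ran from 499845 to 648254 per library, and the depth of the libraries is unknown. In PD-L2 BRAFi tumor 2, 16.1% of all FPKM went to a single microRNA gene, Mir2137, for which the remaining 11 libraries show 0, and the member comparisons that this library moves most are also given without it. Pdcd1lg2 was at 0.133 to 3.54 FPKM in the 6 control tumors and at 20.8 to 176 FPKM in the 6 PD-L2 tumors, in the order that the labels give. The labelled tissue showed little of the melanocyte programme: of its 7 lineage markers, Dct, Mlana and Tyrp1 were listed at 0 in most libraries, Pmel reached 0.603 FPKM and Mitf at 2.32 to 5.16 FPKM, while Sox10 ran from 0.0307 to 24.9 FPKM. Summed markers of T and B cells reached 0.346 FPKM and those of NK cells 2.38 FPKM at most, against 509 to 3249 FPKM for 14 macrophage markers. In bulk tumors, fewer cells of a type and less RNA per cell cannot be told apart.

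Axl was the most abundant member. Averaged over the 12 tumors it stood at 174 FPKM, above 96.5% of the 12117 genes tested, which are those averaging 1 FPKM or more. Pros1 followed at 43.3 FPKM, above 83.4% of the tested genes, then Gas6 at 21.3 FPKM (66.4%), Mertk at 20.0 FPKM (64.8%) and Tyro3 at 10.5 FPKM (45.5%). Axl made up 82.1 to 87.9% of the summed FPKM of the 3 receptors in every tumor. The members also differed in how far they ranged: the highest tumor exceeded the lowest 4.89-fold for Gas6, 2.24-fold for Mertk, 1.88-fold for Pros1, 1.84-fold for Tyro3 and 1.48-fold for Axl. Within groups, the SD of Gas6 on the log2(FPKM + 1) scale was 0.51, larger than that of 88.7% of tested genes, and the SD of Axl was 0.14, larger than that of 18.1%. Gas6 was therefore the member that varied most and Axl the one that varied least.

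**Figure D1:**
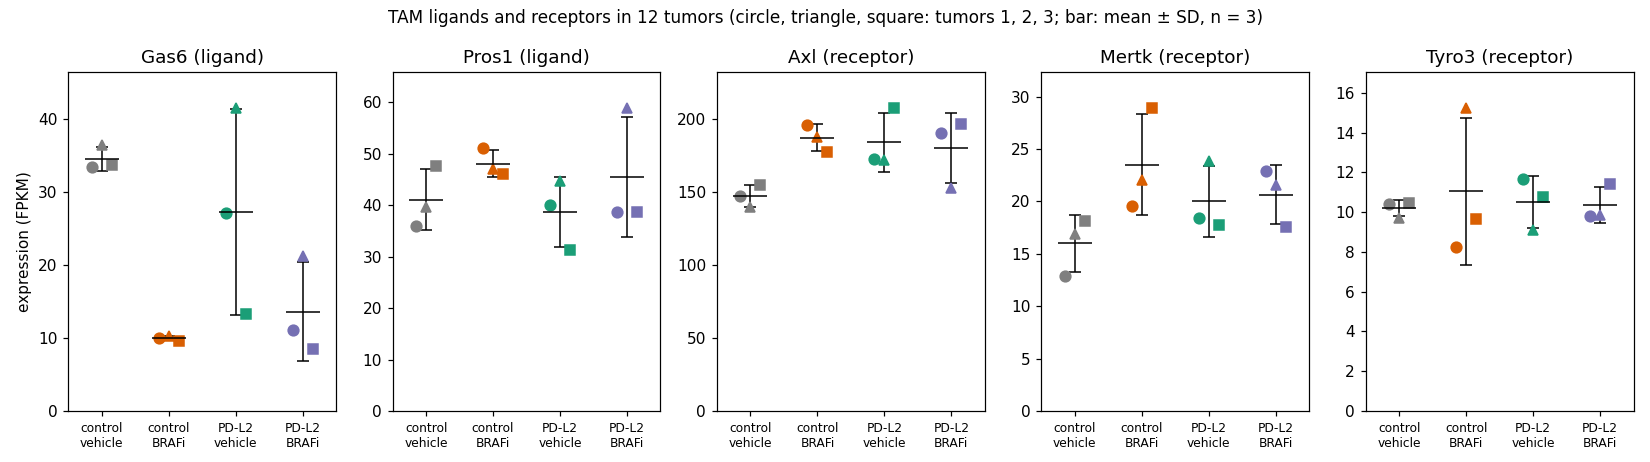
FPKM (vertical axes, each starting at 0) of the 5 TAM genes in the 4 groups; each symbol is 1 tumor and each bar is the mean ± SD of 3 tumors. Gas6 lay at 33.4 to 36.4 FPKM in control vehicle tumors and at 9.65 to 10.2 FPKM in control BRAFi tumors, whereas Tyro3 stayed between 8.27 and 15.2 FPKM throughout.

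Gas6, the ligand of Axl, was lower under BRAFi. In the control vehicle tumors it was at 33.4, 36.4 and 33.7 FPKM (mean 34.5 ± 1.68, SD, n = 3), and in the control BRAFi tumors at 10.02, 10.2 and 9.65 FPKM (9.96 ± 0.286). The groups lay far apart, with little spread inside either of them. The mean fell by 71.1%. On the log2(FPKM + 1) scale, used for all fold changes here, Gas6 fell by 1.69 ± 0.37 (SE, limma adjusted p = 0.0354). Of the 5 members, 1 fell and 0 rose past the adjusted p of 0.05 in this comparison, against 3.91% of all tested genes that fell, 3.51% that rose and 7.42% in either direction.

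The fall in control tumors was steady in size, and its call was not. The fold change ran from -1.78 to -1.53 over 22 alternative settings, and 11 of them kept an adjusted p under 0.05 (range 0.0065 to 0.127). The smallest p came from a fit to the 2 control groups alone. The call ended without control vehicle tumor 1 (adjusted p = 0.127) or 2 (0.0909), without control BRAFi tumor 1 (0.0581), 2 (0.0991) or 3 (0.0807), without PD-L2 vehicle tumor 1 (0.0537) or 2 (0.0527), and without PD-L2 BRAFi tumor 1 (0.0548), while the fold change stayed between -1.72 and -1.66 in limma. It ended too with no filter on low values (0.0617) and with the trend on transcript length removed (0.0652). Calls among all 12117 tested genes moved as well, from 899 as reported. Leaving out single libraries gave 0 (without control vehicle tumor 2) to 1649 (without control vehicle tumor 3). The PD-L2 libraries do not enter the fold change in control tumors but do enter the shared estimate of spread. By an exact two-sided permutation test of 3 against 3 tumors p was 0.1, the smallest value such groups allow.

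In PD-L2 tumors the level of Gas6 was uneven. It was at 27.1, 41.5 and 13.3 FPKM under vehicle (27.3 ± 14.1, SD, n = 3) and at 11.1, 21.3 and 8.49 FPKM under BRAFi (13.6 ± 6.76). The ranges overlapped, because PD-L2 vehicle tumor 3 lay below PD-L2 BRAFi tumor 2. The mean was 50.1% lower under BRAFi, and the fold change of -0.91 ± 0.37 did not pass (limma adjusted p = 0.199). It was -1.26 without PD-L2 BRAFi tumor 2 (adjusted p = 0.126), -1.34 without PD-L2 vehicle tumor 3 (0.115) and -0.55 without PD-L2 vehicle tumor 2 (0.457). None of the 5 members passed in PD-L2 tumors with limma, where 0.239% of tested genes did (0.182% higher, 0.0578% lower), and 1 of them, Gas6, had an unadjusted p under 0.05, as did 2586 of the 12117 genes.

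Averaged over control and PD-L2 tumors, Gas6 was the sole member that passed. Its mean change under BRAFi was -1.30 ± 0.26 (limma adjusted p = 0.0108), and it passed in 21 of 21 alternatives, with fold changes of -1.52 to -1.12 and adjusted p from 0.00746 to 0.0336. In this average 11.2% of tested genes fell past the threshold, 13.4% rose and 24.7% did either. An exact two-sided permutation test that exchanged treatment within control and within PD-L2 tumors gave p = 0.01 over 400 arrangements, where the smallest possible is 0.005. This p is not adjusted and is 1 of 5, with the other members at 0.095 to 0.925 in the same exact permutation test. The difference between the responses of PD-L2 and control tumors was 0.78 ± 0.52 and missed the threshold (limma adjusted p = 0.956), so a weaker fall with PD-L2 was not shown. It was 0.43 without PD-L2 BRAFi tumor 2 and ran from 0.36 (without PD-L2 vehicle tumor 3) to 1.14 (without PD-L2 vehicle tumor 2) when single libraries were left out.

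Neither comparison of PD-L2 with control tumors passed for Gas6. PD-L2 against control gave -0.46 ± 0.37 under vehicle (limma adjusted p = 0.665) and 0.32 ± 0.37 under BRAFi (adjusted p = 0.867), and both depended on single tumors. The first was -0.04 without PD-L2 vehicle tumor 3 and -0.82 without PD-L2 vehicle tumor 2. The second was -0.03 without PD-L2 BRAFi tumor 2 and 0.58 without PD-L2 BRAFi tumor 3. Both PD-L2 comparisons draw on the same tumors as the BRAFi comparisons. The order of means, lowest first, was control BRAFi, PD-L2 BRAFi, PD-L2 vehicle and control vehicle tumors, and the values of each pair of neighbours in that order overlapped.

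**Figure D2:**
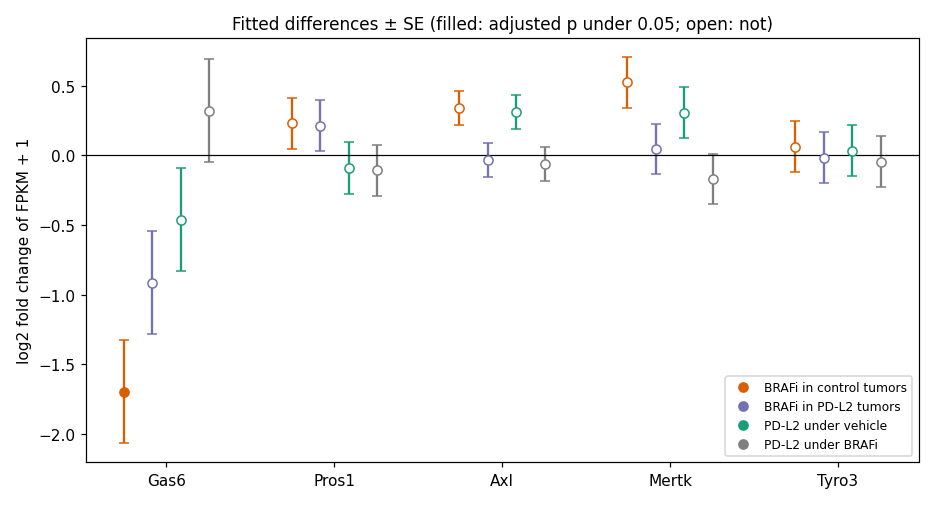
Log2 fold change of FPKM + 1 with its SE for the 5 genes in 4 comparisons; filled symbols have an adjusted p under 0.05. The BRAFi difference of Gas6 in control tumors (-1.69) is the filled symbol, and the open symbols of the other 4 genes lie between -0.17 and 0.52.

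Pros1, the anticoagulant protein S and the other TAM ligand, did not share the fall. It was at 36.0, 39.7 and 47.6 FPKM in control vehicle tumors (41.1 ± 5.91, SD, n = 3) and at 51.0, 47.1 and 46.2 FPKM in control BRAFi tumors (48.1 ± 2.60). The ranges overlapped, and the change of 0.23 ± 0.18 did not pass (limma adjusted p = 0.406). In PD-L2 tumors it was at 40.1, 44.7 and 31.3 FPKM under vehicle (38.7 ± 6.83) and at 38.7, 58.9 and 38.6 FPKM under BRAFi (45.4 ± 11.7), a change of 0.21 ± 0.18 (adjusted p = 0.522). The high value is PD-L2 BRAFi tumor 2, and without it the change was 0.01. PD-L2 against control was -0.09 ± 0.18 under vehicle (adjusted p = 0.895) and -0.11 ± 0.18 under BRAFi (adjusted p = 0.909), the latter -0.31 without PD-L2 BRAFi tumor 2. The 4 groups overlapped with their neighbours in the order PD-L2 vehicle, control vehicle, PD-L2 BRAFi and control BRAFi.

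The balance of the ligands shifted with treatment. The ratio of Gas6 to Pros1, which does not depend on how a library is scaled, was 0.927, 0.918 and 0.708 in control vehicle tumors and 0.196, 0.217 and 0.209 in control BRAFi tumors. In PD-L2 tumors it was 0.676, 0.927 and 0.425 under vehicle and 0.287, 0.362 and 0.220 under BRAFi. All 6 vehicle tumors, from 0.425 upward, lay above all 6 BRAFi tumors, which reached 0.362. Group means were 0.851 ± 0.124 and 0.208 ± 0.0106 in control tumors, and 0.676 ± 0.251 and 0.289 ± 0.0710 in PD-L2 tumors (SD, n = 3 each). This ratio was formed after the values were seen and is given without a test. Summed FPKM of the ligands was 75.6 ± 5.93 in control vehicle and 58.0 ± 2.71 in control BRAFi tumors, while that of the 3 receptors was 173 ± 8.87 and 221 ± 4.74. The sums in PD-L2 tumors lay closer together. Under vehicle and BRAFi they were 66.0 ± 20.8 and 59.0 ± 18.3 for the ligands. For the receptors they were 214 ± 18.6 and 211 ± 23.5.

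Axl, the receptor whose sole TAM ligand is Gas6, was lowest in control vehicle tumors. It was at 147, 140 and 155 FPKM there (147 ± 7.51, SD, n = 3) and at 196, 187 and 177 FPKM in control BRAFi tumors (187 ± 9.20). The groups did not overlap, and the mean was 26.8% higher under BRAFi. The fold change of 0.34 ± 0.12 missed the threshold (limma adjusted p = 0.0880; exact permutation p = 0.1); it passed when libraries were rescaled to the same sum (0.52, adjusted p = 0.0491) or quantile normalized (0.43, adjusted p = 0.0445). Rescaling to the same sum moved the median change of all genes in this comparison to 0.17. With the trend of expression on transcript length removed, Axl changed by 0.18.

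In PD-L2 tumors Axl did not differ with treatment beyond the spread. It was at 172, 172 and 207 FPKM under vehicle (184 ± 20.3) and at 190, 152 and 197 FPKM under BRAFi (180 ± 24.0), a difference of -0.03 ± 0.12 (limma adjusted p = 0.899). PD-L2 BRAFi tumor 2 held the low value, and without it the difference was 0.08; without PD-L2 vehicle tumor 3 it was 0.05. PD-L2 against control under vehicle gave 0.31 ± 0.12, with groups that did not overlap and an adjusted p of 0.414 in limma. That comparison and the BRAFi comparison in control tumors share the control vehicle tumors, the lowest of the 4 groups, and so are not independent. Under BRAFi the difference was -0.06 ± 0.12 (adjusted p = 0.922), and 0.05 without PD-L2 BRAFi tumor 2. The interaction of -0.38 ± 0.17 did not pass (limma adjusted p = 0.956).

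Mertk, the receptor that macrophages use to take up dead cells, was like Axl lowest on average in control vehicle and highest in control BRAFi tumors, with the PD-L2 groups in the opposite order between them. It was at 12.9, 16.9 and 18.2 FPKM in control vehicle tumors (16.0 ± 2.75, SD, n = 3) and at 19.5, 22.1 and 28.9 FPKM in control BRAFi tumors (23.5 ± 4.83). The groups did not overlap, and the mean was 46.9% higher under BRAFi. The fold change of 0.52 ± 0.18 missed the threshold (limma adjusted p = 0.0848) and passed in 0 of 22 alternatives, which ranged from 0.34 to 0.70. In PD-L2 tumors it was at 18.4, 23.9 and 17.8 FPKM under vehicle (20.0 ± 3.38) and at 22.9, 21.5 and 17.5 FPKM under BRAFi (20.6 ± 2.79), a difference of 0.05 ± 0.18 (adjusted p = 0.913) that was 0.01 without PD-L2 BRAFi tumor 2. PD-L2 against control was 0.31 ± 0.18 under vehicle (adjusted p = 0.559) and -0.17 ± 0.18 under BRAFi (adjusted p = 0.862). The average BRAFi change was 0.28 ± 0.13 (adjusted p = 0.124), and the interaction was -0.48 ± 0.26 (adjusted p = 0.956).

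Tyro3, the TAM receptor best known from the nervous system, was the flattest member across groups. It was at 10.4, 9.72 and 10.5 FPKM in control vehicle tumors (10.2 ± 0.425, SD, n = 3) and at 8.27, 15.2 and 9.64 FPKM in control BRAFi tumors (11.05 ± 3.69). In PD-L2 tumors it was at 11.7, 9.11 and 10.8 FPKM under vehicle (10.5 ± 1.30) and at 9.83, 9.85 and 11.4 FPKM under BRAFi (10.4 ± 0.918). Control BRAFi tumor 2 stood above the other 11 tumors, and without it the change in control tumors was -0.17 in place of 0.06. All fold changes between groups lay from -0.04 to 0.06 with an SE of 0.18, and limma adjusted p was 0.833 or higher.

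Of Pros1 and the receptors, 0 of these 4 genes passed in any comparison with limma. In control tumors Axl and Mertk joined Gas6 among the 3 of 5 members whose vehicle and BRAFi values did not overlap, against 36.1% of tested genes, and the same 3 had an unadjusted p under 0.05, against 31.8%. The other comparisons gave 0 of 5 members without overlap for BRAFi in PD-L2 tumors (29.9% of tested genes), 1 of 5, Axl, for PD-L2 under vehicle (20.6%) and 0 of 5 for PD-L2 under BRAFi (11.5%). With limma the calls among all tested genes were 0% for PD-L2 under vehicle, 0.0743% for PD-L2 under BRAFi (0.0578% higher, 0.0165% lower) and 0.0165% for the interaction, and no member was among them. At an unadjusted p under 0.05 the members counted 1 of 5, 0 of 5 and 0 of 5 in these comparisons, against 1319, 856 and 542 of the 12117 genes.

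Transcript length went with the BRAFi difference in control and in PD-L2 tumors. Tested genes were split into 5 equal bins of length. In control tumors the median fold change ran from -0.29 in the shortest bin to 0.30 in the longest. It ran from -0.19 to 0.21 in PD-L2 tumors and from -0.25 to 0.26 for the BRAFi average. The values that follow are for BRAFi in control tumors. Gas6, with a median annotated transcript of 2548 nt, fell in the third bin, where the median was 0.02, and its fold change was -1.70 with the length trend removed. Mertk, at 4302 nt, fell in the longest bin, and its change went from 0.52 to 0.34. Pros1 (3303 nt), Axl (4082 nt) and Tyro3 fell in the fourth bin, where the median was 0.11. Overlapping genes are a limit of unstranded libraries: Gas6 overlaps Tmem255b on the opposite strand, which reached 0.415 FPKM at most, and Mertk overlaps the antisense gene Gm14011, which the table does not list.

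Single PD-L2 tumors set the extremes of several members. PD-L2 BRAFi tumor 2 had the highest Gas6 (21.3 FPKM) and Pros1 (58.9 FPKM) of the 6 BRAFi tumors and the lowest Axl (152 FPKM). PD-L2 vehicle tumor 3 had the lowest Gas6 (13.3 FPKM) and Pros1 (31.3 FPKM) of the 6 vehicle tumors and the highest Axl (207 FPKM). These tumors were also the extremes of Pdcd1lg2 in their groups. PD-L2 BRAFi tumor 2 was at 20.8 FPKM, against 176 and 171 FPKM in tumors 1 and 3. PD-L2 vehicle tumor 3 was at 114 FPKM, against 41.3 and 58.2 FPKM in tumors 1 and 2. The part of the Pdcd1lg2 level in these values was not tested. Over the 12 tumors Gas6 and Axl gave a Pearson r of -0.79 and a Spearman rho of -0.73 on log2 values, and -0.87 after the group means were removed. With group means removed, Gas6 and Pros1 gave an r of 0.85 (-0.01 before) and Pros1 and Axl -0.71 (-0.24 before). The remaining pairs then ran from -0.41 (Axl and Mertk) to 0.45 (Gas6 and Mertk). These values describe 12 libraries that fall into 4 groups, and the pairs were chosen after the values of 10 pairs of members were seen.

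Most macrophage markers, like Gas6, were lower under BRAFi, and few passed the test. Of 14 markers, all tested, 13 were lower under BRAFi in control tumors (median -0.87) and 13 in PD-L2 tumors (median -0.55), against a median of 0.02 and 0.01 over all tested genes. In control tumors 1 of 14 passed, lower, against 3.91% of all tested genes that fell. In PD-L2 tumors 0 of 14 passed, against 0.0578% that fell. Setting PD-L2 beside control tumors gave lower values for 13 of 14 under vehicle (median -0.55), where Gas6 was at -0.46, and for 11 of 14 under BRAFi (median -0.26), where Gas6 was at 0.32. With limma 0 of 14 passed in either, where 0% and 0.0743% of all tested genes did. Past the threshold for the BRAFi average were 3 of 14, all lower, against 11.2% of all tested genes that fell: Folr2, a folate receptor of resident macrophages (-1.51 ± 0.24, limma adjusted p = 0.0064), the lysozyme Lyz2 (-1.65 ± 0.41, adjusted p = 0.0192) and the lysosomal protein Cd68 (-0.70 ± 0.20, adjusted p = 0.0310). Over 21 alternatives Folr2 passed in 21, Lyz2 in 19 and Cd68 in 9, and 1 to 6 of the 14 passed; it was 6 without PD-L2 BRAFi tumor 2 and 1 without control vehicle tumor 1 or PD-L2 vehicle tumor 1. The defining markers Csf1r, the receptor for the macrophage growth factor CSF1, and Emr1 (F4/80) did not pass in control tumors (-0.76 ± 0.49 and -0.76 ± 0.51), with adjusted p of 0.305 and 0.317 in limma. None of the 3 defining markers was at 0 in any library.

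The summed macrophage level followed Gas6 tumor by tumor in part. Most of this sum came from Lyz2 (mean 417 FPKM) and the complement genes C1qa (343), C1qb (289) and C1qc (269). The defining markers Cd68 (80.8), Csf1r (47.9) and Emr1 (27.9) added little to it. It was 2081 to 3249 FPKM under vehicle and 715 to 1448 FPKM under BRAFi in control tumors, and 979 to 2213 and 509 to 1720 FPKM in PD-L2 tumors. PD-L2 vehicle tumor 3, with the lowest Gas6 among vehicle tumors, had the lowest sum of them (979 FPKM), and PD-L2 BRAFi tumor 2, with the highest Gas6 among BRAFi tumors, had the highest (1720 FPKM). Over the 12 tumors Gas6 and the sum gave a Pearson r of 0.85 and a Spearman rho of 0.78 on log2 values. These values describe libraries that share groups and are given without a test. Among control BRAFi tumors the sum was 1448, 715 and 1310 FPKM while Gas6 stayed at 10.02, 10.2 and 9.65 FPKM. The mean of Mertk, a macrophage receptor, was 46.9% higher in control BRAFi tumors, a change that missed the threshold (limma adjusted p = 0.0848). Which cells of the tumors carried Mertk was not tested. The part of the macrophage level in the Gas6 result was not tested.

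Other cell type lists were set beside Gas6 in the same way. Summed platelet and megakaryocyte markers were at 46.1 to 80.8 FPKM in control vehicle and 13.4 to 22.3 FPKM in control BRAFi tumors, and at 39.5 to 81.5 and 12.8 to 31.5 FPKM in PD-L2 tumors. Its sum was mostly the chemokine Pf4 (platelet factor 4), which fell by 1.61 ± 0.30 on average (limma adjusted p = 0.00858), while the defining platelet markers Itga2b (0.505 to 1.14 FPKM) and Gp9 (listed at 0 in 7 of 12 libraries) were near 0. With Gas6 this sum, in effect the level of Pf4, gave a Pearson r of 0.89 and a Spearman rho of 0.94 on log2 values, the highest among the lists described here. Which cells carried Pf4 was not tested, so the sum is not a measure of platelets. Summed erythroid markers were at 170 to 269 FPKM in control vehicle and 31.1 to 44.7 FPKM in control BRAFi tumors, and at 132 to 372 and 164 to 263 FPKM in PD-L2 tumors. Of the 4 tested, 3 fell in control tumors, against 3.91% of all tested genes. They were the haemoglobin genes Hbb-b1, Hbb-b2 and Hba-a1 (-2.46 to -2.20, limma adjusted p from 0.0209 to 0.0277). In PD-L2 tumors the same genes were at -0.19 to 0.12 and did not pass, and for PD-L2 under BRAFi they were higher (2.18 to 2.47, adjusted p = 0.0454 each, passing in 5 alternatives each), 3 of the 9 genes called in that comparison. Endothelial markers overlapped between vehicle and BRAFi (164 to 261 against 160 to 282 FPKM in control tumors), as did the summed fibroblast markers (2334 to 2846 against 2509 to 2920 FPKM). Of the 8 fibroblast markers, the growth factor receptor Pdgfra rose in control tumors (0.58 ± 0.15, adjusted p = 0.0464) and on average (0.45 ± 0.11, adjusted p = 0.0168), and Pdgfrb rose on average (0.64 ± 0.18, adjusted p = 0.0307). Among all tested genes 3.51% rose in control tumors and 13.4% on average. Pdgfra passed in 7 of 22 alternatives in control tumors and in 19 of 21 on average, and Pdgfrb in 10 of 21. Summed pericyte and smooth muscle markers were at 75.4 to 85.1 FPKM in control vehicle and 104 to 117 FPKM in control BRAFi tumors, and at 55.1 to 85.5 and 93.6 to 114 FPKM in PD-L2 tumors. Of the 5 tested, 3 rose on average, against 13.4% of all tested genes: Rgs5 (1.57 ± 0.30, adjusted p = 0.00890), Notch3 (0.74 ± 0.16, adjusted p = 0.0133) and Cspg4 (0.53 ± 0.16, adjusted p = 0.0402). The other 2, Acta2 (-0.09 ± 0.21) and Des (-0.78 ± 0.82; outside the naming rule), did not pass (limma adjusted p = 0.775 and 0.490). Cspg4 rose in control tumors (1.22 ± 0.23, adjusted p = 0.0301) and was at -0.16 ± 0.23 in PD-L2 tumors (adjusted p = 0.719). There Rgs5 was at 1.90 ± 0.42 and Notch3 at 0.78 ± 0.23 (limma adjusted p = 0.0745 and 0.124). Cspg4 thus did not follow these 2 markers in PD-L2 tumors, and which cells carried it was not tested. For the average Rgs5 passed in 21 of 21 alternatives, Notch3 in 18 of 20 and Cspg4 in 8 of 21. Neutrophil markers reached 46.2 FPKM and dendritic cell markers 18.1 FPKM at most; the integrin Itgax, the sole dendritic marker tested, rose on average (0.90 ± 0.28, adjusted p = 0.0391), in 9 of 21 alternatives. The part of each in the Gas6 result was not tested.

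**Figure D3:**
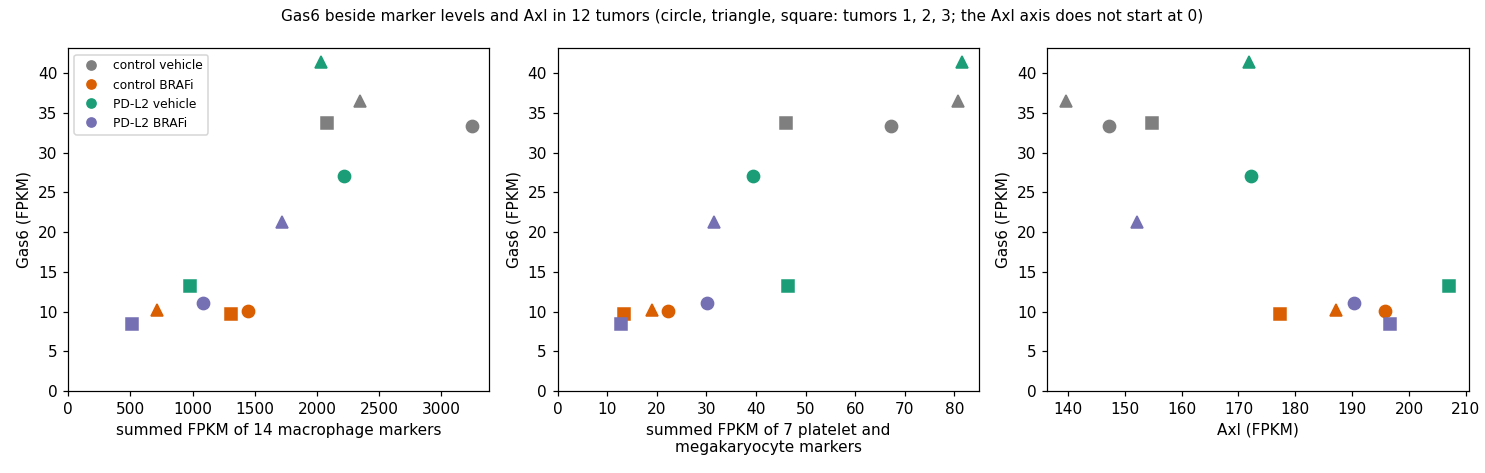
Gas6 (vertical axes, FPKM) against the summed FPKM of 14 macrophage markers, the summed FPKM of 7 platelet and megakaryocyte markers, and Axl (FPKM, axis not from 0), with 1 symbol for each of 12 tumors. The first sum is mostly Lyz2, C1qa, C1qb and C1qc, and the second mostly Pf4. The 5 BRAFi tumors with Gas6 at 8.49 to 11.1 FPKM spread from 509 to 1448 FPKM of macrophage markers, and the highest Gas6 values sit with low to middle Axl.

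The genes whose profile over the 12 libraries was most like that of each member were found among 9075 genes averaging 5 FPKM or more. For Gas6 they were Brf2, a subunit of RNA polymerase III initiation (Pearson r 0.96, Spearman rho 0.94), the cytoskeletal regulator Kank2 (0.95 and 0.90) and the glycolipid transfer protein Gltp (0.94 and 0.83). Kank2 averaged 41.8 FPKM under vehicle and 26.8 FPKM under BRAFi in control tumors, and 41.8 and 31.7 FPKM in PD-L2 tumors. For Pros1 they were Pik3r1, the regulatory subunit of PI3 kinase (0.94 and 0.94), the carboxypeptidase Cpd (0.92 and 0.94) and Abr (0.92 and 0.91). For Axl they were Tacc2 (0.93 and 0.93), Nop9 (0.93 and 0.84) and Plaur, the urokinase receptor (0.92 and 0.92), which averaged 49.7 and 90.7 FPKM in control and 82.8 and 94.7 FPKM in PD-L2 tumors under vehicle and BRAFi. For Mertk they were Il6st, the signalling receptor gp130 (0.88 and 0.85), Gcnt4 (0.88 and 0.76) and Hdac4 (0.86 and 0.72). For Tyro3 they were Anapc7 (0.91 and 0.76), 0610009B22Rik (0.90 and 0.66) and Ttll12 (0.86 and 0.64). With group means removed, r was 0.78 to 0.94 for these 15 genes. They are the highest of many values over libraries that share groups, and are given without a test.

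The wider TAM pathway was described with 6 lists. The first held the enzymes of Gla modification, which active Gas6 and Pros1 require (Ggcx, Vkorc1 and Vkorc1l1), and 12 other Gla proteins. Of these 15 genes, 7 were tested, and for the BRAFi average 0 rose and 2 fell: Mgp, the matrix Gla protein and so a substrate (-1.39 ± 0.44, limma adjusted p = 0.0428), and Vkorc1, the enzyme that recycles vitamin K (-0.60 ± 0.19, adjusted p = 0.0442). Mgp was among the most abundant transcripts, with means of 7259 and 3922 FPKM in control and 8584 and 2909 FPKM in PD-L2 tumors under vehicle and BRAFi. The carboxylase Ggcx changed by 0.05 ± 0.12 (adjusted p = 0.790). Mgp passed in 9 and Vkorc1 in 7 of 21 alternatives. The list had a median of 0.05, which ran from -0.13 to 0.14 over the alternatives, against 0.01 over all tested genes.

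Of 9 genes that expose or hide phosphatidylserine 7 were tested; 4 rose and 0 fell for the BRAFi average (median 0.43), and 1 rose with the length trend removed. They included Plscr1, a phospholipid scramblase (0.84 ± 0.17, limma adjusted p = 0.0118), the flippase Atp11a (0.50 ± 0.14, adjusted p = 0.0261), and the scramblase Ano6 (0.43 ± 0.14, adjusted p = 0.0471). The other 3, Xkr8, Tmem30a and Plscr3, were at 0.01 to 0.06 (adjusted p of 0.607 or higher). Flippases return the lipid to the inner leaflet and scramblases move it both ways, so these risers do not act in 1 direction. Over 21 alternatives Atp11a passed in 14 and Ano6 in 7. Plscr1 rose in control tumors as well (0.96 ± 0.25, adjusted p = 0.0454), and it passed in 21 of 21 alternatives for the average and in 8 of 22 for control tumors.

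Of 16 other bridging molecules and receptors for phosphatidylserine 11 were tested, and for the BRAFi average 3 rose and 0 fell (median 0.24; 0 to 5 rose over the alternatives). The integrin subunits Itgb3 (1.23 ± 0.30, limma adjusted p = 0.0174) and Itgav (0.36 ± 0.11, adjusted p = 0.0368), which pair into a receptor for the bridging protein MFG-E8, rose together with Lrp1, a large endocytic receptor (0.58 ± 0.19, adjusted p = 0.0457). In control tumors Itgb3 (1.63 ± 0.42, adjusted p = 0.0450) and the secreted glycoprotein Thbs1 (1.54 ± 0.40, adjusted p = 0.0472) rose; each of them passed in 7 of 22 alternatives there. For the average Itgb3 passed in 20, Itgav in 11 and Lrp1 in 8 of 21, and Itgav was 0.06 with the length trend removed. Mfge8, which encodes MFG-E8, had a mean of 118 FPKM and changed by -0.30 ± 0.14 (adjusted p = 0.119).

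Of the engulfment machinery, 15 of 15 genes were tested; 5 rose and 0 fell for the BRAFi average. The median was 0.23 and was -0.0012 with the length trend removed, where 2 rose and 2 fell. The risers were Dock1, an activator of RAC1 (0.55 ± 0.11, limma adjusted p = 0.0116), the adaptor Crk (0.40 ± 0.12), the focal adhesion kinase Ptk2 (0.49 ± 0.15), Elmo2, the partner of DOCK1 (0.45 ± 0.14), and Trio (0.37 ± 0.11), the last 4 with adjusted p from 0.0333 to 0.0398. Trio is outside the naming rule and completes the count. Dock1 passed in 21 of 21 alternatives, Crk in 13, Ptk2 and Elmo2 in 9 each and Trio in 7.

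Signalling and feedback genes moved both ways. Of 17 tested, 3 rose and 2 fell for the BRAFi average (median 0.15). Those that rose included the kinase Src (0.37 ± 0.11, limma adjusted p = 0.0390) and Pik3cb, a catalytic subunit of PI3 kinase (0.57 ± 0.18, adjusted p = 0.0448; outside the naming rule). The kinase Akt1 (-0.28 ± 0.07, adjusted p = 0.0206) and Twist1, a transcription factor that TAM signalling induces in macrophages (-0.47 ± 0.14, adjusted p = 0.0329), fell. Socs1 and Socs3, feedback inhibitors of cytokine signalling that TAM receptors induce, were at 0.25 ± 0.11 and 0.21 ± 0.19 with adjusted p of 0.111 and 0.428. Akt1 passed in 16, Pik3cb in 9, Src in 8 and Twist1 in 8 of 21 alternatives, and with the length trend removed 0 rose and 1 fell.

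Of 14 genes known to regulate Mertk or Axl or to shed or bind these receptors, 11 were tested; 3 rose and 1 fell for the BRAFi average (median 0.20, 0.05 with the length trend removed). Jun, an AP-1 subunit (0.59 ± 0.08, limma adjusted p = 0.00469), Tead1, a partner of YAP (0.77 ± 0.15, adjusted p = 0.0105), and the nuclear receptor Ppard (0.68 ± 0.19, adjusted p = 0.0272) rose. Nr1h2, the liver X receptor beta (-0.43 ± 0.08, adjusted p = 0.00858), fell. In control tumors Jun (0.58 ± 0.11, adjusted p = 0.0301) and Tead1 (0.91 ± 0.22, adjusted p = 0.0396) rose. Jun, Tead1 and Nr1h2 passed for the average in 21 of 21 alternatives and Ppard in 16; in control tumors Jun passed in 14 and Tead1 in 9 of 22. The shedding proteases Adam10 (0.20 ± 0.10, adjusted p = 0.173) and Adam17 (0.25 ± 0.09, adjusted p = 0.0656) did not pass. In none of the 6 lists did a gene pass for BRAFi in PD-L2 tumors alone, where 0.239% of all tested genes did. Jun was at 0.59 ± 0.11 there (limma adjusted p = 0.0572). Of all tested genes, 13.4% rose and 11.2% fell for the BRAFi average, and 3.51% rose and 3.91% fell in control tumors. These shares are the background of the counts in each comparison.

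**Figure D4:**
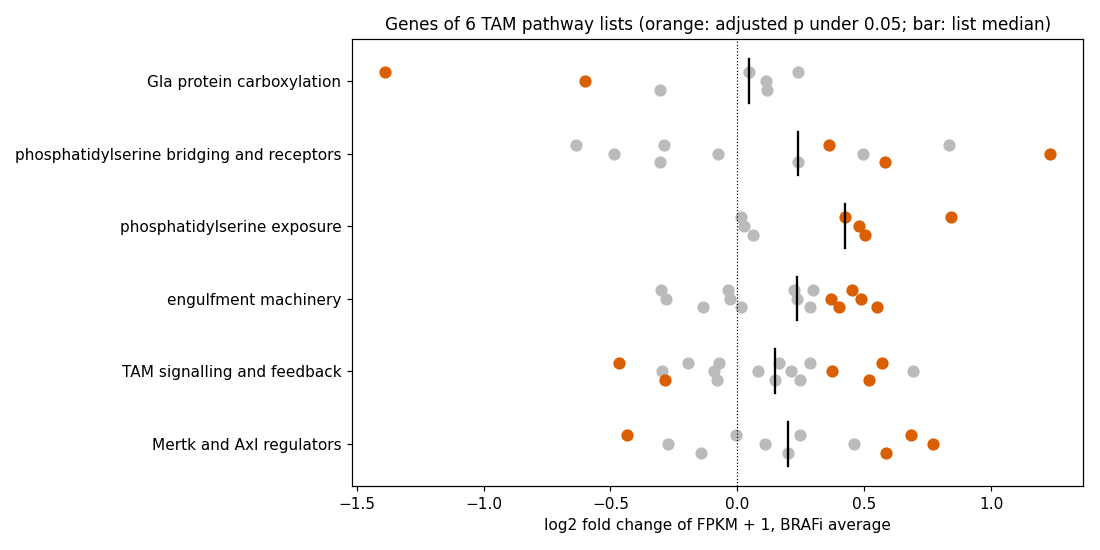
Log2 fold change of FPKM + 1 for the BRAFi average (horizontal axis) of the tested genes in 6 TAM pathway lists; orange points have an adjusted p under 0.05 and bars are list medians. Genes that expose or hide phosphatidylserine have the highest median (0.43), and Mgp (-1.39) and Itgb3 (1.23) are the extremes.

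**Figure D5:**
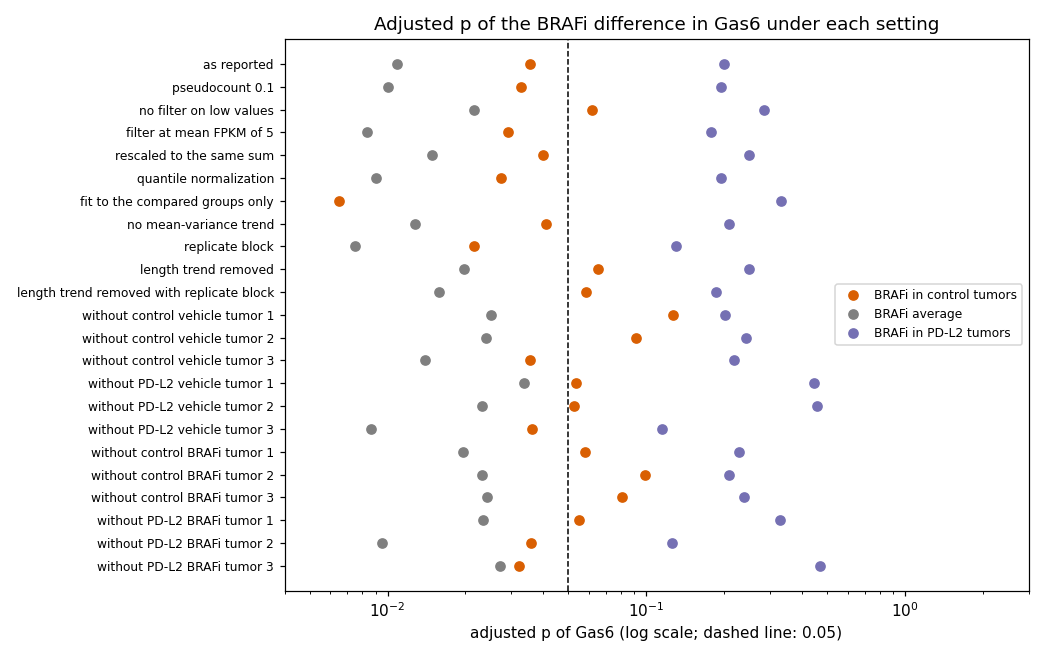
Adjusted p (horizontal log axis, dashed line at 0.05) of the BRAFi difference in Gas6 under each setting (rows), for control tumors, PD-L2 tumors and their average. All points of the average lie at or below 0.0336, those of PD-L2 tumors at or above 0.115, and those of control tumors on both sides of the line.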

How the data were processed

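The authors deposited 1 table of FPKM values for 23940 genes in 12 libraries, with no read counts. Per the labels' protocols, RNA was isolated with an RNeasy micro kit and poly(A) libraries were made with an unstranded TruSeq v2 kit. The labels speak of paired-end reads and the series design of single-end reads. Genome build mm9 and the programs TopHat, TopHat2, Cuffnorm and Cuffdiff are named per the submitters' processing notes, without versions or roles; the annotation and scaling are not given in these sources. Among 5542 genes with a mean below 0.2 FPKM, at most 0.184 of values in any of 66 library pairs shared a ratio (window 0.1 on the log2 scale), so whole reads were not recovered, depth is unknown and no counting interval is given.

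The analysis used log2(FPKM + 1) of 12117 genes averaging 1 FPKM or more. A model with 1 mean per group, using every library, was fitted in limma 3.58.1 (R 4.3.3; moderated variances with a mean-variance trend, two-sided, Benjamini-Hochberg over all tested genes, threshold 0.05), and the procedure was tested on simulated data. All adjusted p-values come from it. Fold changes understate low genes. Replicates are separate tumors per the labels. Members, lists and tests were chosen with earlier results of these data known. Named genes are the 5 members, Pdcd1lg2, up to 4 list genes with the smallest p past the threshold per comparison, defining markers and the 3 genes most correlated with each member. Sequences are from RefSeq and transcript lengths from GENCODE M21, both on GRCm38, a build other than that of the files, so no coordinate of the files was used. Results for 2 list genes are not reported here.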

Additional observations from a re-analysis of the deposited data

How the results depend on the processing

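Of the 2 calls on members, that of Gas6 for the BRAFi average held in 21 of 21 alternatives, and that in control tumors did not. The number of members called for BRAFi in control tumors was 1 as reported, 0 with no filter on low values, 2 after rescaling to the same sum and 2 after quantile normalization (Axl was added), 0 with the length trend removed and 0 with the length trend removed with replicate block. Leaving out single libraries gave 0 to 1. Calls among all genes moved too. In the same order they were 899 of 12117, 196 of 19748, 1436 of 12117, 1126 of 12117, 50 of 12039 and 28 of 12039. Leaving out single libraries gave 0 (without control vehicle tumor 2) to 1649 (without control vehicle tumor 3). Without the filter more genes enter both the fit and the adjustment. The cause of the lost calls was not tested in any of these settings. In the other 5 comparisons the number of members called was the same under every alternative run. A fit to the compared groups alone gives no value for the interaction or the BRAFi average.

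Tumor numbers gave no sign of pairing: deviations of same-numbered tumors correlated at -0.37 to 0.24 over 18 pairs, against -0.29 to 0.39 for other pairs. These correlations cannot exclude a shared mouse, day or batch. With the replicate block, Gas6 changed by -1.69 in control tumors (limma adjusted p = 0.0215) and -1.30 on average (adjusted p = 0.00746), and the block changed no call on a member.

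Sign changes were seen in values that had passed no test, among them Gas6 for PD-L2 under BRAFi (0.32 as reported). Rescaling to the same sum gave Tyro3 0.0088 for BRAFi in PD-L2 tumors and -0.014 for PD-L2 under vehicle. Quantile normalization gave Tyro3 -0.034 for BRAFi in control tumors and -0.056 on average, Axl 0.019 for BRAFi in PD-L2 tumors and Pros1 0.031 for the interaction. Removing the length trend, with or without the block, gave Tyro3 -0.11 for BRAFi in control tumors and -0.12 on average, Mertk -0.084 for BRAFi in PD-L2 tumors and Pros1 0.018 for the interaction. Leaving out single libraries gave these ranges. For BRAFi in control tumors Tyro3 was -0.17 to 0.23, and on average -0.095 to 0.11. For BRAFi in PD-L2 tumors Axl was -0.10 to 0.079, Mertk -0.030 to 0.17 and Tyro3 -0.11 to 0.056. For PD-L2 under vehicle Pros1 was -0.20 to 0.051 and Tyro3 -0.038 to 0.13. For PD-L2 under BRAFi Gas6 was -0.033 to 0.58, Axl -0.13 to 0.051 and Tyro3 -0.21 to 0.19. For the interaction Pros1 was -0.21 to 0.092 and Tyro3 -0.25 to 0.16. With 3 tumors a group and unknown depth, a difference of the size of an SE in the receptors (0.12 to 0.18) could not be told from 0.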
